A study of Rattus norvegicus with 12 samples.

Results

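Rat cardiac progenitor cells attached for 2 h to fibronectin-coated dishes were compared with the same cells attached to dishes without coating. These are 6 of the 12 RNA-seq libraries of the series, 3 in each group, and they were chosen by their labelled culture condition. The cells of all 12 libraries derive from a single clone and were grown in serum with leukemia inhibitory factor, basic fibroblast growth factor, erythropoietin and glutathione. For the assay the cells were seeded sparsely, so that they did not touch, in medium with 0.1% fetal bovine serum, and the coated dishes held fibronectin diluted in water or ready-made laminin. The other groups are 3 libraries of cells on laminin and 3 of cells in suspension. Replicates 1, 2 and 3 of every group carry batches 1, 2 and 3 in the labels, so each fibronectin library was compared with the uncoated library of its own batch. Because all cells come from 1 clone, p-values reflect how batches of that clone vary, and animals were not sampled.

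Fibronectin is a large glycoprotein of the extracellular matrix that cells bind through integrins, receptors that link the matrix to the actin cytoskeleton. Cells that spread on a matrix assemble focal adhesions and tense actin fibers, and in many cell types this tension keeps the co-activators YAP and TAZ in the nucleus. There they bind TEAD transcription factors and raise a set of target genes, while the Hippo kinases LATS1 and LATS2 oppose them. The series title names YAP and Plk2, a Polo-like kinase, as early regulators of matrix-dependent fate. An uncoated dish in medium with serum is also a surface that cells can attach to, so the contrast measures what the coating adds to plating itself.

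The totals of the 6 libraries lay between 15875160 and 19153325 counts, and 9975 of 16924 genes were tested. Ribosomal RNA took 1.63% to 4.24% of the counts on fibronectin and 1.85% to 3.06% without coating, and these ranges overlap. The libraries of batch 3 stood apart: they held 51.9% of the within-group sum of squares of log2 CPM (counts scaled to a common library total) in these 6 libraries, so the counts of called genes, over all genes and in each list, were also run without that batch. Of the 8 cardiac progenitor markers, 6 were in the files. Kit was at 2.99 CPM on fibronectin and 2.89 CPM without coating, and Gata4 was at 85.6 and 89.8 CPM. Isl1 and Abcg2 had no count in any library, and Tbx5 had 1 count over the 12 libraries. Hand2 was near the floor, at 0.368 to 0.632 CPM on fibronectin and 0.646 to 0.832 CPM without coating. These ranges do not overlap, as in 6.38% of all genes tested, and edgeR did not call Hand2 (log2 fold change ± SE -0.58 ± 0.32, adjusted p = 0.458). Of the 8 cardiomyocyte markers, Nkx2-5 and Myh7 had no count, Tnnt2, encoding a troponin, was at 4.74 CPM on fibronectin and 5.46 CPM without coating, and Tnni3, encoding another troponin, had 95 counts over the 12 libraries. Of the 10 fibroblast and mesenchyme markers, Vim, an intermediate filament gene, was at 5400 CPM on fibronectin and 5120 CPM without coating. In the same order, Col1a1 was at 1190 and 1220 CPM, Col1a2 at 430 and 431 and Col3a1 at 364 and 350. Pdgfra was at 336 and 357 CPM, Pdgfrb at 87 and 80.7 and Postn at 15.1 and 13.5. Tcf21 and Dcn had no count, and Thy1 had 18 counts over the 12 libraries. None of the tested markers of cardiomyocytes, endothelium, smooth muscle, fibroblasts, blood or progenitors passed the test with edgeR or DESeq2, with 2 of them at an unadjusted p under 0.05. The summed fibroblast and mesenchyme markers ran from 7659 to 8102 CPM on fibronectin and from 7431 to 7669 CPM without coating, and the summed blood markers from 56.6 to 63.4 and from 51.5 to 57.7 CPM, both overlapping. Within each batch both sums were higher on fibronectin. Most of the blood sum was 1 gene, Cd14, at 55.8 CPM on fibronectin and 50.1 CPM without coating. The part of these shifts in the results was not tested. In bulk RNA, fewer cells making a transcript and less transcript per cell cannot be told apart.

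Fibronectin changed a small share of the transcriptome, and mostly upward. At an adjusted p under 0.05, 191 of 9975 genes were called (1.91%), of which 141 were higher on fibronectin (1.41% of the genes tested) and 50 were lower (0.501%). All adjusted p-values here come from edgeR's quasi-likelihood test with Benjamini-Hochberg adjustment over all genes tested, with the batch as a block. Most changes were small: 15 genes rose at least 2-fold and 2 fell at least 2-fold, while 132 of the called genes moved by less than 1.5-fold. All 191 called genes moved in the same direction in the 3 batches, and in 137 of them the libraries of the groups did not overlap, against 636 of all genes tested (6.38%). The calls were made on these same values, so the larger share among them follows in part from the selection. The median log2 fold change over all genes tested was 0.01.

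The number of calls rests on the pairing. Without the replicate block 17 genes were called, 15 higher and 2 lower, and each of them was among the 191. Of the 67 called genes described by name, 15 kept their call without the block: Ccn1, Ccn2, Ankrd1, Nlrp3, Plk2, Nuak2, Ajuba, Amotl2, Klf2, Gadd45b, Pim3, Rhob, Sgk1, St3gal4 and Lhx6. The other 52 are calls within batches only. Leaving out fibronectin 2 left 57 calls and leaving out no coating 2 left 75, whereas leaving out no coating 1 gave 561, and 239 genes were called without batch 3.

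**Figure D1:**
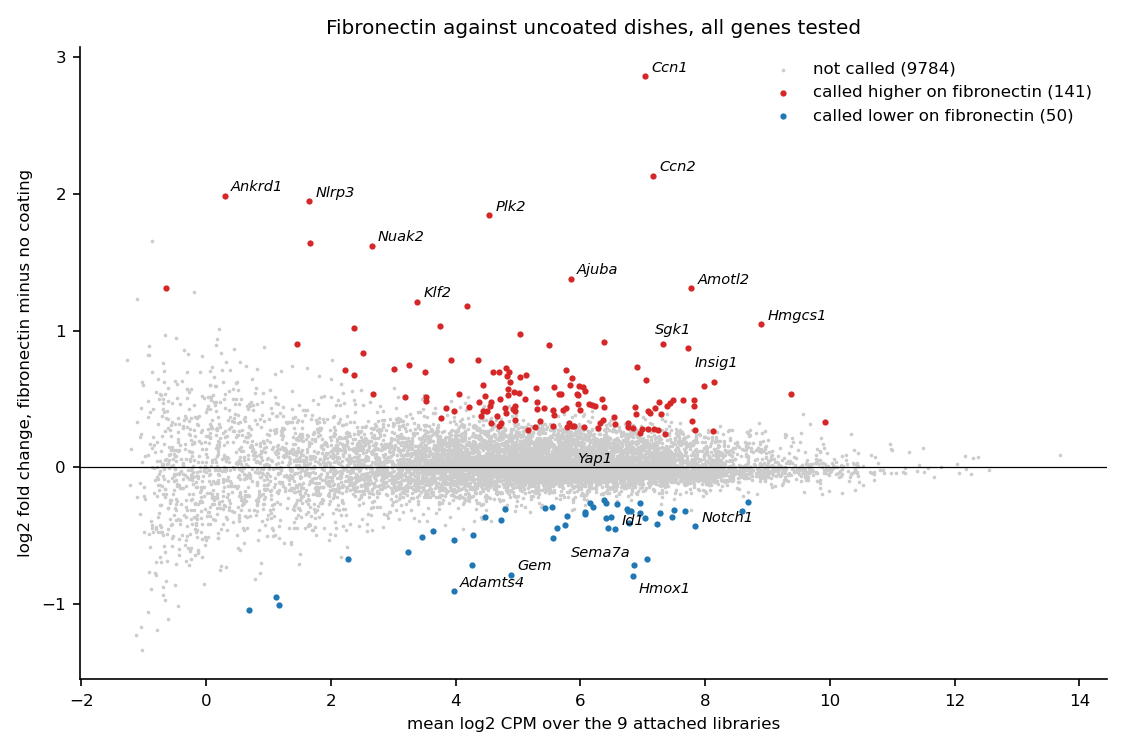
Log2 fold change of fibronectin over no coating (y axis) against mean log2 CPM of the 9 attached libraries (x axis) for the 9975 genes tested. Red points are the 141 genes called higher, blue points the 50 called lower and grey points the rest, and the labelled genes are among those described in the text, with Ccn1 at the top at 2.86.

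The 3 called genes with the largest rises on fibronectin, Ccn1, Ccn2 and Ankrd1, were targets of YAP and TAZ. Ccn1, which encodes a secreted matricellular protein that binds integrins, stood at 692, 463 and 559 CPM in fibronectin 1, 2 and 3 and at 114, 56.5 and 72.1 CPM in no coating 1, 2 and 3. Every fibronectin library was thus above every uncoated library, and the difference was 2.86 ± 0.13 (log2 fold change ± SE, 7.28-fold, adjusted p = 1.77e-06). Ccn2, also called connective tissue growth factor, stood at 485, 289 and 383 CPM on fibronectin and at 103, 79.4 and 77.7 CPM without coating, again without overlap, and rose by 2.13 ± 0.08 (4.39-fold, adjusted p = 1.02e-06).

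Amotl2, Ajuba and Nuak2, YAP targets that act on the Hippo pathway, rose as well, while Lats2, Ptpn14 and Tead1 did not pass (adjusted p = 0.0599, 0.191 and 0.464). Amotl2, an angiomotin-like scaffold that binds YAP, was at 419, 386 and 441 CPM on fibronectin against 164, 160 and 176 CPM without coating (1.31 ± 0.06, adjusted p = 1.77e-06). Ajuba, a LIM-domain protein of cell junctions that restrains LATS kinases, was at 116, 103 and 112 CPM against 42.3, 41.7 and 42.8 CPM (1.38 ± 0.08, adjusted p = 1.3e-05). Nuak2, a kinase related to AMPK, was at 12.7, 11.1 and 13.8 CPM against 4.33, 4.16 and 3.70 CPM (1.62 ± 0.11, adjusted p = 7.57e-05). In these genes too the groups lay apart, and the uncoated libraries of Ajuba and Nuak2 differed little among themselves. Ankrd1, a nuclear ankyrin-repeat protein first known from heart and skeletal muscle, was expressed near the floor, at 3.0, 2.79 and 2.0 CPM against 0.548, 0.512 and 0.881 CPM, and rose by 1.99 ± 0.26 (adjusted p = 0.0039).

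Of the 28 genes in the YAP and TAZ target list, 22 were in the files and 20 passed the filter on low counts. Among these 20, 8 were called higher (40%, against 1.41% of all genes tested) and none lower, 19 had a fold change above 0, and the list's median was 0.20 on the log2 scale against 0.01 over all genes. This list and all others here were written with earlier results of these data known, so their shares are not independent support. The remaining called members were Tgfb2, a secreted transforming growth factor, at 0.48 ± 0.07, and Gadd45a, a stress sensor, at 0.44 ± 0.09. The other 12 members did not pass the test. Lats2, the kinase that feeds back on YAP, was closest (0.25 ± 0.06, adjusted p = 0.0599), and its libraries stood at 131, 125 and 126 CPM on fibronectin against 107, 112 and 104 CPM without coating. It was called with DESeq2's size factors within edgeR (adjusted p = 0.0435), with DESeq2 (0.0365), without batch 3 (0.0274) and without fibronectin 3 (0.0347). Axl, Asap1, Ccn5 and Myof had fold changes between 0.01 and 0.05 on the log2 scale, and F3, encoding tissue factor, had -0.03. The count of called members was 6 without the block and 5 without fibronectin 2, where Ankrd1 (adjusted p = 0.0502), Tgfb2 (0.0646) and Gadd45a (0.0844) missed the threshold. Ankrd1 also missed it without no coating 2, by less than rounding shows (0.05), and Gadd45a missed it in 7 of the 9 fits that left out a library.

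The promoters of 5 of these targets are shown because each holds the letters that TEAD factors bind. The sequences are the 250 bases before the gene's start in RefSeq, on build GRCr8, written 5′ to 3′ along the gene, with the motif GGAATG or its reverse complement in capitals.
Ccn1: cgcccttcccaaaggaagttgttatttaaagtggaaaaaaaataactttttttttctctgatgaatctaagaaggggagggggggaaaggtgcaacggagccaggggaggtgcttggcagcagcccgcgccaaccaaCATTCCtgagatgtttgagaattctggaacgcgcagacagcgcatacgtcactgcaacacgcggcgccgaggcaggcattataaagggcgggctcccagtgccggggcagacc
Ccn2: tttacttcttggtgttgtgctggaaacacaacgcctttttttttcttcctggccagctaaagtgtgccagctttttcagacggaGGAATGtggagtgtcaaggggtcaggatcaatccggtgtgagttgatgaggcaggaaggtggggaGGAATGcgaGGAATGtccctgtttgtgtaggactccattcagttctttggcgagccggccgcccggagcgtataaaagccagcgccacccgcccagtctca
Amotl2: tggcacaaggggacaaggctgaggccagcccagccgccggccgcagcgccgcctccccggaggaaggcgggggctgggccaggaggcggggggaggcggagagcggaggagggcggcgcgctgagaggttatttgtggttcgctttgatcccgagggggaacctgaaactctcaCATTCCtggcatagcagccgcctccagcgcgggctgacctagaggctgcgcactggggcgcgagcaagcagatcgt
Ajuba: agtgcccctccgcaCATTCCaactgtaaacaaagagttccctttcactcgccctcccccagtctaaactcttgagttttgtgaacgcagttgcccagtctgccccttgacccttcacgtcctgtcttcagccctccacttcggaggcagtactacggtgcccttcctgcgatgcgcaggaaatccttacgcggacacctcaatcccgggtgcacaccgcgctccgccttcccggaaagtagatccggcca
Nuak2: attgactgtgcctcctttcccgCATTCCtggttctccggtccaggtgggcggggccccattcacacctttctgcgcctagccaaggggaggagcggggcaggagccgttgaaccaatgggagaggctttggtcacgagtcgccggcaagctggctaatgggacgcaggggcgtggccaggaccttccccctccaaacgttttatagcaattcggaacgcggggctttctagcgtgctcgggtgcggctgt
The windows lie at chr2:237225690-237225939 on the minus strand for Ccn1, chr1:22624615-22624864 on the minus strand for Ccn2, chr8:112182376-112182625 on the plus strand for Amotl2, chr15:32000043-32000292 on the minus strand for Ajuba and chr13:46305756-46306005 on the plus strand for Nuak2. Ccn2 held 3 matches, whose first bases lie 166, 101 and 92 bases before the start, and the other promoters shown held 1 each. Searched on both strands, the motif was in 5 of the 7 called YAP and TAZ targets with a promoter in the table (71.4%), in 6 of 13 promoters of the 15 largest rises (46.2%), in 1 of 11 promoters of the 15 largest falls (9.09%) and in 3538 of 27457 genes of the table (12.9%). The 6 rises include the 5 targets shown, so these counts largely repeat the same genes. The other was Sgk1, with a match at 1 of its listed starts. A match describes letters and not binding.

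**Figure D2:**
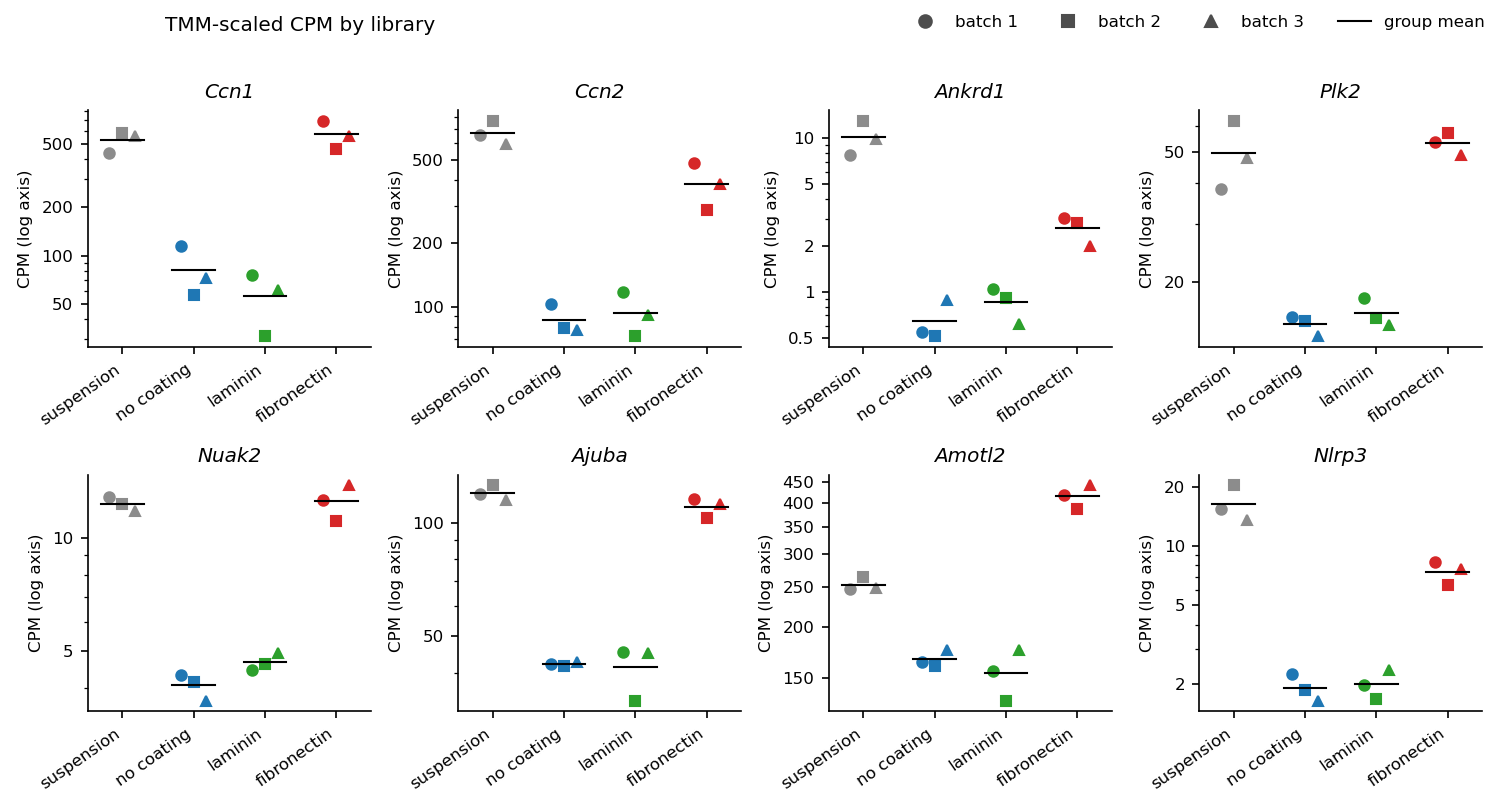
TMM-scaled CPM on a log axis for 8 genes that rose on fibronectin, with each library as a point (circle, square and triangle for batches 1, 2 and 3) and each group mean as a line. In every panel the 3 fibronectin libraries lie above the 3 uncoated and the 3 laminin libraries; the suspension libraries are plotted for reference.

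The levels of the co-activators themselves hardly differed. Yap1 stood at 59.6, 58.2 and 57.1 CPM on fibronectin and at 57.1, 60.3 and 57.7 CPM without coating, fully overlapping, and the 95% interval of its log2 fold change ran from -0.12 to 0.12. Wwtr1, which encodes TAZ, stood at 103, 99.8 and 82.8 CPM against 102, 94.9 and 72.1 CPM, with an interval from -0.03 to 0.21. RNA levels do not report the nuclear share of either protein. Of the 18 tested genes of the Hippo pathway core, 1 was called (5.56%, against 1.91% of all genes tested). Vgll4, a TEAD partner that competes with YAP, was lower at 22.3, 15.7 and 20.1 CPM against 27.1, 22.4 and 25.1 CPM (-0.36 ± 0.07, adjusted p = 0.0248). That call was lost in 6 of the 9 fits without 1 library, with an adjusted p of 0.21 without fibronectin 2 and 0.195 without no coating 2. DESeq2 did not call Vgll4 (0.0876) but called Lats2, also in this list, higher, so the 1 call of the list changed gene and direction with that tool.

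Of the 4 tested Polo-like kinases, Plk2 was called (25%, against 1.91% of all genes tested). It encodes a kinase of the centrosome and of stress responses that is induced early after growth stimulation, and it stood at 53.6, 57.2 and 48.9 CPM on fibronectin against 15.7, 15.2 and 13.6 CPM without coating. The groups were far apart and each was tight, and the difference was 1.85 ± 0.07 (3.59-fold, adjusted p = 1.02e-06). It rose by 1.79 to 1.90 on the log2 scale in every one of the 19 alternative fits. Plk4, the kinase of centriole duplication, varied with batch, at 142, 160 and 76.4 CPM against 135, 131 and 50.7 CPM, and did not pass (0.31 ± 0.10, adjusted p = 0.204), but it was called without no coating 1 (0.43 ± 0.09, adjusted p = 0.0222). Plk1, the mitotic kinase, had a log2 fold change of -0.05 ± 0.05 and Plk3, a stress-responsive member, -0.16 ± 0.09, neither past the threshold. The fits do not compare the kinases with each other. No TEAD motif was found in the promoter window of Plk2.

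Plk2 is also a p53 target, and 3 of 16 tested p53 targets were called higher (1.41% of all genes tested), with none lower. The others were Gadd45a and Pmaip1, which encodes the pro-death protein NOXA and stood at 8.89, 7.0 and 3.79 CPM against 5.26, 4.93 and 1.88 CPM (0.71 ± 0.13, adjusted p = 0.0193), with overlap between the groups. Cdkn1a, the p53-induced cell cycle inhibitor, had a log2 fold change of -0.32 ± 0.08 (adjusted p = 0.0769) and Mdm2 one of 0.10 ± 0.06, both short of the threshold. The list's count fell to 1, Plk2, without the block and in 4 of the fits that left out a library: fibronectin 1, fibronectin 2, no coating 2 and no coating 3. The adjusted p of Pmaip1 was then 0.0768, 0.0979, 0.0614 and 0.0574, in that order. DESeq2 did not call Pmaip1 either (0.0625).

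Beyond the YAP and TAZ targets, the 15 largest rises included Klf2, Gadd45b, Sgk1 and Pim3. Klf2, a zinc-finger factor of endothelial flow responses, was at 18.7, 16.4 and 16.1 CPM on fibronectin and at 7.28, 7.10 and 7.75 CPM without coating (1.21 ± 0.12, adjusted p = 0.000615). Gadd45b, a stress-inducible relative of Gadd45a, was at 34.8, 27.5 and 32.5 CPM against 14.3, 11.6 and 15.8 CPM (1.18 ± 0.08, adjusted p = 7.57e-05). Sgk1, a kinase downstream of PI3K, was at 234, 234 and 249 CPM against 120, 130 and 135 CPM (0.90 ± 0.05, adjusted p = 1.78e-05). Pim3, a kinase that promotes survival, rose by 0.98 ± 0.07. In 13 of the 15 largest rises, which were ranked among called genes, the groups did not overlap (137 of all 191 called genes and 6.38% of all genes tested). The exceptions were Rnd3 and Vof16, whose batch 3 libraries were low in both groups: Rnd3 stood at 83.3, 80.0 and 45.7 CPM against 50.4, 47.2 and 19.0 CPM, and the noncoding Vof16 at 30.1, 29.6 and 13.9 CPM against 16.2, 12.6 and 7.05 CPM. Within each batch both were higher on fibronectin, which the ranking required.

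**Figure D3:**
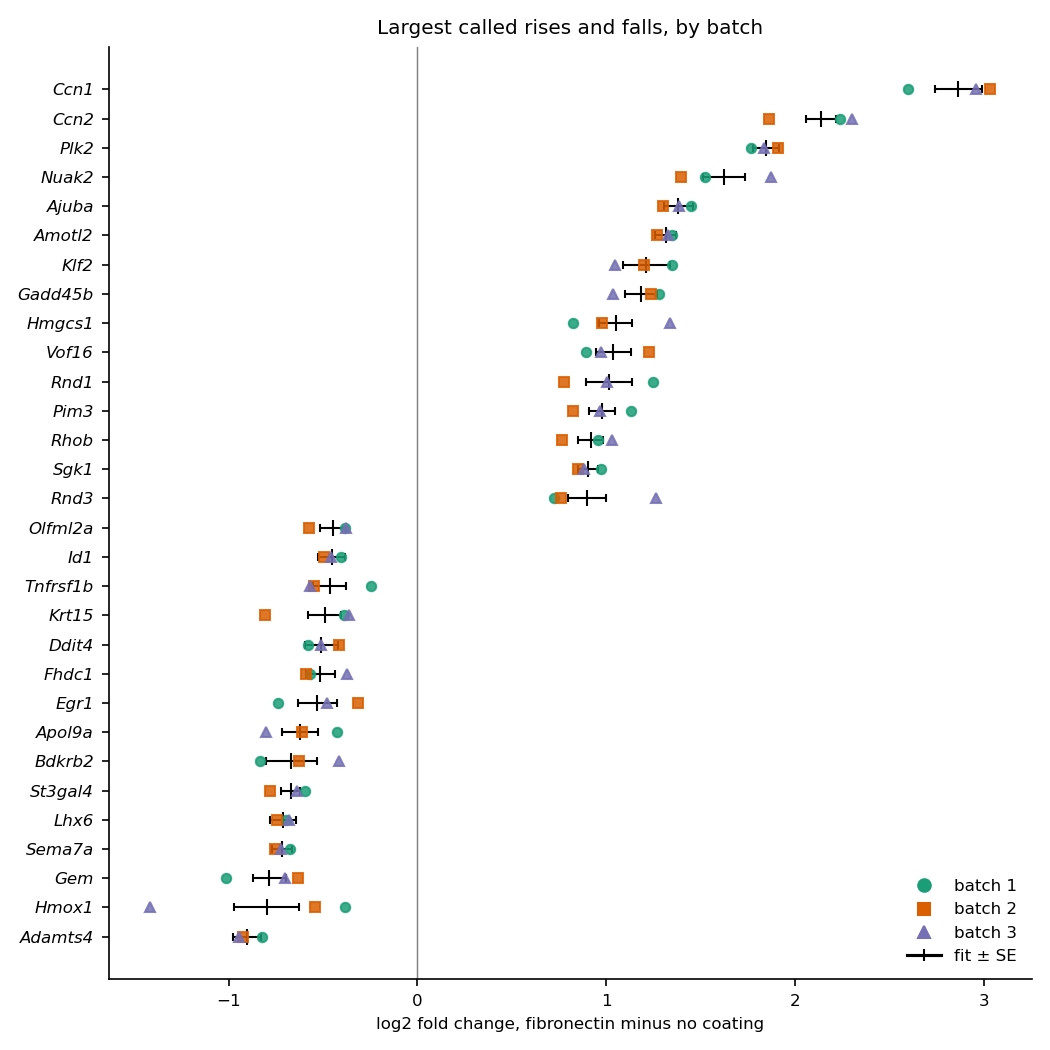
Log2 fold change of fibronectin over no coating in each batch (colored symbols) and from the fit (black, with SE) for the 15 largest rises and the 15 largest falls. All batch values lie on the side of the fit, as the ranking required, and Hmox1 shows the widest spread among the falls, from -0.38 in batch 1 to -1.41 in batch 3.

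Nlrp3, which encodes a sensor of the inflammasome, was below the level required for that ranking and was the member of the NF-kB and innate sensor list that rose. It stood at 8.30, 6.32 and 7.62 CPM on fibronectin and at 2.25, 1.86 and 1.64 CPM without coating (1.95 ± 0.14, 3.86-fold, adjusted p = 7.9e-05). Nfkbia, the inhibitor of NF-kB, was lower in the same list, at 97.2, 90.1 and 102 CPM against 118, 111 and 132 CPM (-0.32 ± 0.05, adjusted p = 0.01). The other 13 of 15 tested members were not called, so the list moved as single genes in both directions and its median was -0.12. Of 11 tested cytokines and chemokines 1 was called, Cxcl1 (9.09%, against 1.91% of all genes tested). It was higher, at 43.5, 39.2 and 35.3 CPM against 34.9, 25.1 and 16.5 CPM (0.67 ± 0.12, adjusted p = 0.0201). Leaving out fibronectin 2 ended the calls of Nfkbia (adjusted p = 0.117) and Cxcl1 (0.162), and leaving out no coating 2 did as well (0.059 and 0.121). The call of Cxcl1 also ended without laminin 3 (0.0535).

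Of 25 tested regulators of actin and the small GTPases that shape it, 5 were called higher (20%, against 1.41% of all genes tested) and none lower: Rhob, Rnd1, Rnd3, Cdc42ep3 and Arhgap29. Rhob, a rapidly induced small GTPase of endosomes, was at 126, 112 and 131 CPM against 64.9, 66.1 and 64.0 CPM (0.92 ± 0.07, adjusted p = 7.57e-05). Rnd1 and Rnd3, GTPases that oppose RhoA and loosen actin fibers, rose by 1.02 ± 0.12 and 0.90 ± 0.10. Cdc42ep3, an effector of CDC42, rose by 0.54 ± 0.07, and Arhgap29, a GTPase-activating protein, by 0.60 ± 0.12. RhoA itself (Rhoa) had 0.00 ± 0.04, and Rock1, a kinase it activates, 0.05 ± 0.14, neither past the threshold. Without the block Rhob alone of the 5 was called, and without fibronectin 2 the count was 3 (Cdc42ep3 at an adjusted p of 0.0536).

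In the cytoskeletal machinery itself the called changes were small in size. Of 26 tested targets of SRF and its actin-sensing partner MRTF, 3 were called higher (11.5%, against 1.41% of all genes tested). They were Fhl2 at 0.37 ± 0.05, Pdlim5 at 0.29 ± 0.04 and Lima1 at 0.26 ± 0.04, all LIM-domain proteins of actin structures. Fhl2 stood at 112, 109 and 120 CPM on fibronectin and at 85.2, 86.2 and 94.2 CPM without coating. The actins Actb and Actg1 had 0.07 ± 0.04 and 0.09 ± 0.05 and did not pass. The list fell to 1 call without fibronectin 2, where Pdlim5 had an adjusted p of 0.0718 and Lima1 0.117, to 1 without no coating 2 (0.0882 and 0.0992), to 2 without no coating 3 (Lima1 0.0672) and to 0 in edgeR without the block, where 5 members had an unadjusted p under 0.05.

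None of the 25 tested focal adhesion components, 20 extracellular matrix genes, 6 fibronectin-binding integrins or 6 laminin- and collagen-binding integrins was called by edgeR. With 1.91% of all genes tested called, lists of these sizes would often hold no call. The members named next were picked after their values were seen. Vcl, which encodes vinculin, came closest among the focal adhesion genes (0.19 ± 0.04, adjusted p = 0.0549), and Zyx, encoding zyxin, had 0.11 ± 0.05. Itga5, the alpha subunit of the classical fibronectin receptor, had -0.21 ± 0.06 (adjusted p = 0.11) and its partner Itgb1 0.11 ± 0.07 (adjusted p = 0.473). Fn1, the cells' own fibronectin gene, had -0.05 ± 0.07 (adjusted p = 0.783). At an unadjusted p under 0.05 there were 8 focal adhesion genes, 3 fibronectin-binding integrins and none in the other 2 lists. DESeq2 called 1 focal adhesion gene and none in the other 3 lists, and leaving out fibronectin 1 or no coating 1 gave 1 call among the fibronectin-binding integrins.

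Genes of cholesterol synthesis formed the largest group of calls in any list. SREBP2, the product of Srebf2, drives these genes when sterols run low, and INSIG1 holds it back. Of 20 tested members, 13 were called higher (65%, against 1.41% of all genes tested) and none lower, with a median of 0.41 on the log2 scale. Hmgcs1, an enzyme at the start of the pathway, stood at 902, 786 and 660 CPM on fibronectin and at 509, 399 and 261 CPM without coating (1.05 ± 0.09, 2.07-fold, adjusted p = 0.000207). Insig1 stood at 357, 282 and 320 CPM against 216, 158 and 154 CPM (0.87 ± 0.08, adjusted p = 0.000327). The groups did not overlap in either gene, and within both groups batch 1 was the highest.

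Along the pathway, the calls ran from the first steps to the last. Idi1, the isomerase of isopentenyl diphosphate, rose by 0.64 ± 0.13, and Mvd, which makes that diphosphate, by 0.46 ± 0.06. Fdft1 and Sqle, the enzymes that commit farnesyl units to squalene and oxidize it, rose by 0.45 ± 0.05 and 0.39 ± 0.06. Msmo1, a sterol methyl oxidase, stood at 923, 754 and 866 CPM against 677, 536 and 545 CPM and rose by 0.54 ± 0.05 (adjusted p = 0.000459), and the later enzymes Nsdhl, Sc5d and Dhcr7 rose by 0.28, 0.27 and 0.54. Stard4, a sterol carrier, rose by 0.42 ± 0.06. Cyp51, Hsd17b7, Fdps, Lss and Pmvk had values between 0.10 and 0.22 and did not pass, and Srebf2 had 0.03 ± 0.06.

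The sterol calls rest on the pairing more than the YAP and TAZ targets do. Without the block edgeR called 0 of the 20, of which 9 had an unadjusted p under 0.05, with adjusted p-values of 0.706 for Hmgcs1 and 0.372 for Insig1, although their fold changes stayed at 1.01 and 0.86. The uncoated libraries of Hmgcs1 spanned 261 to 509 CPM, which the unpaired fit counts as error. Without fibronectin 2 the count was 5 of 20, without no coating 2 it was 9, and without batch 3 it was 12. In 8 of the 13 called members the groups did not overlap, as in 137 of all 191 called genes (6.38% of all genes tested).

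The promoters of Hmgcs1, Insig1 and Msmo1 are shown, again as the 250 bases before the RefSeq start on GRCr8, since the windows of sterol genes often carry CCAAT boxes, the sites of the factor NF-Y. CCAAT and its reverse complement are in capitals.
Hmgcs1: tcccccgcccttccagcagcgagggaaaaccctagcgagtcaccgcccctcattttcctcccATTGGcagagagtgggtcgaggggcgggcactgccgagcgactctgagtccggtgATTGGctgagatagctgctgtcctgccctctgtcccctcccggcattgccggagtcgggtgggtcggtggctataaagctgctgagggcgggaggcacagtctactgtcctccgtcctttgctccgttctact
Insig1: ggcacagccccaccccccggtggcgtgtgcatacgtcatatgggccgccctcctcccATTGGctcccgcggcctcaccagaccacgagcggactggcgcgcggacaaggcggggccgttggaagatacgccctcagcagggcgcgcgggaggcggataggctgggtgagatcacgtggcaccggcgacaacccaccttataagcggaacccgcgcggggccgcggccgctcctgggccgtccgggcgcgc
Msmo1: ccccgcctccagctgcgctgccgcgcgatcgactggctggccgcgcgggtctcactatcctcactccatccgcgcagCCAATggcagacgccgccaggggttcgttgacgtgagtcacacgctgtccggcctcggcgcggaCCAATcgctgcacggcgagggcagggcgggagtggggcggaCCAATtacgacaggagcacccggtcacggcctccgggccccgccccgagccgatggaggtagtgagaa
They lie at chr2:53382054-53382303 on the plus strand, chr4:8057770-8058019 on the minus strand and chr16:29746863-29747112 on the plus strand. On both strands, CCAAT was in 7 of the 8 called sterol genes with a promoter in the table (87.5%) and in 36.1% of all 27457 genes. The sterol regulatory element, searched as TCACNCCAC, was in none of the 8 and in 1.09% of all genes, and GGAATG was in none of the 8. Other spellings of the sterol element were not searched.

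**Figure D4:**
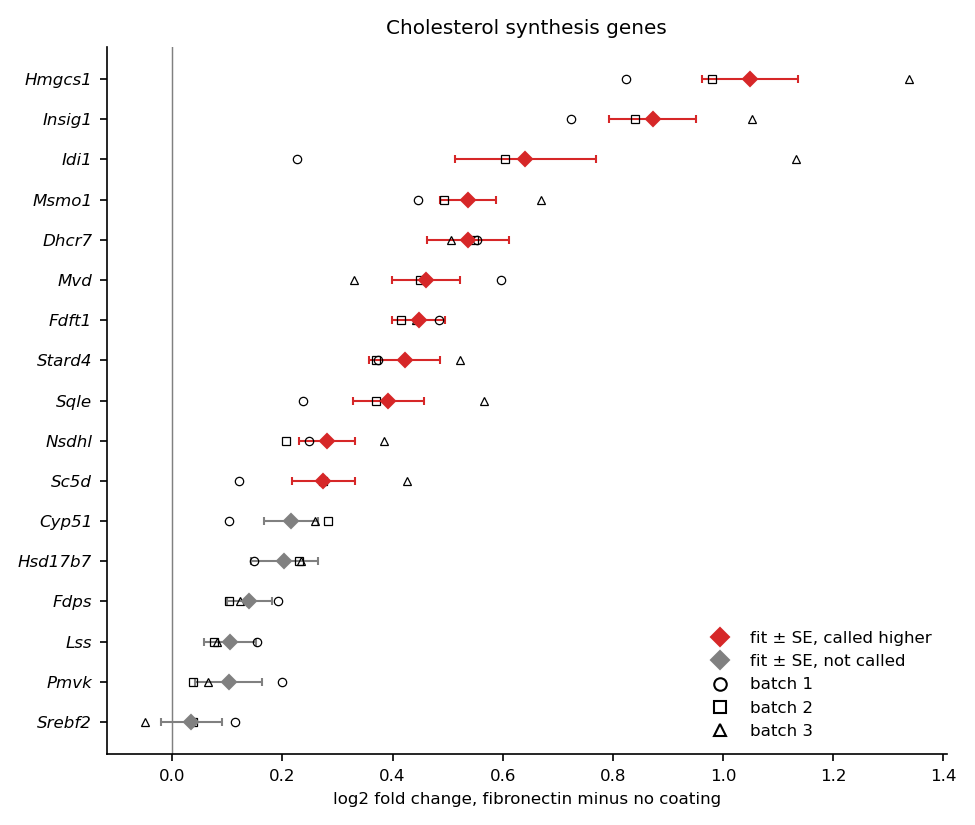
Log2 fold change of fibronectin over no coating for 17 of the 20 tested genes of cholesterol synthesis, with the fit and its SE (red where called higher, grey where not) and the value in each batch (open symbols). For the 11 called genes plotted every batch value is above 0, and in Hmgcs1 batch 3 was the largest, at 1.34.

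The Krüppel-like factors, zinc-finger transcription factors, had 5 of 12 members called higher (41.7%, against 1.41% of all genes tested) and none lower, with a median of 0.19. Besides Klf2 these were Klf7 (0.73 ± 0.07), Klf6 (0.59 ± 0.06), Klf11 (0.42 ± 0.07) and Klf5 (0.36 ± 0.07). Klf7 stood at 46.1, 41.6 and 32.6 CPM on fibronectin and at 27.6, 27.8 and 17.8 CPM without coating, with no overlap. Klf6 stood at 368, 364 and 250 CPM against 272, 244 and 148 CPM, and its groups overlapped because batch 3 was low in both. Klf2 alone was called without the block, and 3 members were called without fibronectin 2 (Klf11 at an adjusted p of 0.0956), without no coating 2 (0.0699) or without no coating 3 (0.0625).

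Immediate early genes, which respond within minutes to growth factors and serum, moved in both directions. Of 24 tested, 4 were called higher (Klf2, Klf6, Myc and Mafk) and 2 lower (Ier5 and Egr1), and the median was -0.02. The called share was 25%, against 1.91% of all genes tested. Myc, the growth-promoting transcription factor, stood at 201, 192 and 202 CPM on fibronectin and at 134, 143 and 150 CPM without coating (0.48 ± 0.05, adjusted p = 0.00088). Mafk, a small MAF factor, rose by 0.50 ± 0.06. Egr1, a classical serum-induced factor, stood at 16.5, 12.6 and 11.5 CPM against 27.7, 15.7 and 16.1 CPM, so fibronectin 1 lay within the uncoated range (-0.53 ± 0.10, adjusted p = 0.0265). Its call ended in 5 of the fits that left out a library, among them fibronectin 2 (0.056), fibronectin 1 (0.0843) and no coating 2 (0.107). Fos had -0.37 ± 0.16 and Jun 0.09 ± 0.05, neither past the threshold. The list's count was 1, Klf2, without the block.

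Among feedback genes of the ERK pathway, 3 of 18 were called higher (16.7%, against 1.41% of all genes tested) and none lower. All 3 encode dual-specificity phosphatases that switch MAP kinases off. Dusp14 stood at 33.9, 30.7 and 40.4 CPM against 17.7, 22.8 and 24.2 CPM (0.70 ± 0.09, adjusted p = 0.00262), Dusp1 rose by 0.43 ± 0.07 and Dusp6 by 0.34 ± 0.06. Hbegf, a membrane-bound ligand of the EGF receptor, was the called member of 8 tested ligands and receptors of that family (12.5%). It stood at 26.2, 20.6 and 23.3 CPM against 14.9, 13.4 and 12.3 CPM (0.79 ± 0.09, adjusted p = 0.00179). Without the block Dusp14 and Hbegf had adjusted p-values of 0.298 and 0.0576. Without fibronectin 2 the calls of Dusp1 (0.106) and Dusp6 (0.0844) ended, as did that of Dusp1 without no coating 2 (0.0909) and that of Dusp6 without no coating 3 (0.0595).

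Eph receptors and their ephrin ligands, which signal between touching cells, had 2 of 11 members called higher and 1 lower. Together these were 27.3% of the list, against 1.91% of all genes tested. Epha2, a receptor kinase, stood at 190, 168 and 186 CPM on fibronectin and at 109, 104 and 114 CPM without coating (0.74 ± 0.07, adjusted p = 0.000316). Its ligand Efna1 was lower, at 126, 111 and 136 CPM against 159, 158 and 180 CPM (-0.42 ± 0.05, adjusted p = 0.00145), so receptor and ligand moved in opposite directions. Efnb2 rose by 0.69 ± 0.12 (adjusted p = 0.0176), a call that ended without fibronectin 2 (0.171) or no coating 2 (0.104). Without the block Epha2 had an adjusted p of 0.0832 and Efna1 one of 0.489.

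Smaller groups held 1 or 2 calls, where 1.91% of all genes tested were called. Tgfb2 was the called gene of 14 TGF-beta targets and regulators. Irs2, the insulin receptor substrate, rose by 0.49 ± 0.07 and Ccng2, a cyclin that slows the cell cycle, by 0.45 ± 0.06. Both are from the list of FOXO-responsive genes, of which 2 of 16 were called (12.5%). Ahr, the aryl hydrocarbon receptor, rose by 0.53 ± 0.06, from 68.0, 62.1 and 37.5 CPM without coating to 99.8, 84.3 and 57.4 CPM, and none of the other 5 tested genes of its list was called. In the Bcl2 family Pmaip1 and the survival protein Mcl1 were called higher, and Mcl1 was borderline (0.24 ± 0.05, adjusted p = 0.0448, lost in 8 of the 9 fits without 1 library, with 0.168 without fibronectin 2). The call of Irs2 ended without fibronectin 2 (0.0628).

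The falls were fewer and smaller than the rises. Adamts4, a protease that cleaves aggrecan, had the largest among the ranked falls, at 12, 8.58 and 12 CPM on fibronectin and at 21.3, 16.4 and 23.2 CPM without coating (-0.90 ± 0.07, adjusted p = 0.000159). Gem, a GTPase of the RGK family that restrains calcium channels, stood at 19.8, 20.1 and 21.3 CPM against 40.0, 31.2 and 34.7 CPM (-0.78 ± 0.09, adjusted p = 0.000915). Sema7a, a membrane-anchored semaphorin that binds integrin beta-1, stood at 108, 83.7 and 76.8 CPM against 172, 141 and 127 CPM (-0.72 ± 0.05, adjusted p = 7.9e-05). Each of the 3 was lower in every fibronectin library than in any uncoated library, where 137 of all 191 called genes had no overlap (6.38% of all genes tested).

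Lhx6, a LIM-homeobox factor, was tight within both groups, at 14.5, 14.6 and 14.8 CPM on fibronectin and at 23.6, 24.5 and 23.7 CPM without coating (-0.71 ± 0.07, adjusted p = 0.000515). St3gal4, a sialyltransferase, stood at 102, 98.3 and 115 CPM against 155, 169 and 179 CPM (-0.67 ± 0.05, adjusted p = 7.9e-05). Lhx6 and St3gal4 were the named falls that also passed without the block, while Adamts4 (0.344), Gem (0.0903) and Sema7a (0.326) did not. In 11 of the 15 largest falls, also ranked among called genes, the groups did not overlap (137 of all 191 called genes and 6.38% of all genes tested).

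Hmox1, the heme oxygenase induced by NRF2, had the largest adjusted p of the 15 ranked falls. It stood at 81.1, 113 and 70.5 CPM on fibronectin and at 106, 165 and 188 CPM without coating, and the difference was -0.80 ± 0.17 (adjusted p = 0.049), largest in batch 3 at -1.41. Without batch 3 it was -0.47 ± 0.06 and still called (adjusted p = 4.02e-06). The call ended without fibronectin 1 (0.0518), fibronectin 2 (0.23), no coating 2 (0.0882) or any laminin library (0.0792 to 0.0999). It also ended with DESeq2 (0.0778), with DESeq2's size factors within edgeR (0.066) and with a filter at 1 CPM (0.0515). No other of the 12 tested NRF2 targets was called by edgeR, and DESeq2 called 1 that was not Hmox1. Bdkrb2, a bradykinin receptor, Tnfrsf1b, a TNF receptor, Ddit4, an inhibitor of mTORC1, Apol9a, Krt15, Fhdc1 and Olfml2a fell by 0.67, 0.47, 0.51, 0.62, 0.49, 0.51 and 0.45 on the log2 scale, in that order. All 7 lost their call without fibronectin 2 (adjusted p from 0.0629 for Ddit4 to 0.23 for Bdkrb2) and without no coating 2 (from 0.0636 for Olfml2a to 0.179 for Tnfrsf1b). DESeq2 did not call Bdkrb2 (0.16), Tnfrsf1b (0.0891) or Ddit4 (0.0695).

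Genes of BMP signaling were lower where edgeR called them. Of 11 tested BMP targets, 3 were called lower (0.501% of all genes tested) and none higher: Id1, Id4 and Atoh8, helix-loop-helix factors downstream of SMAD1. Id1 stood at 64.0, 83.1 and 82.5 CPM on fibronectin and at 84.8, 117 and 113 CPM without coating (-0.45 ± 0.07, adjusted p = 0.0091). Atoh8 stood at 61.5, 77.8 and 87.0 CPM against 72.4, 104 and 118 CPM (-0.37 ± 0.05, adjusted p = 0.00585), and Id4 fell by 0.30 ± 0.06. Id3 had -0.18 ± 0.06 and Smad6, an inhibitory SMAD, 0.45 ± 0.11, neither past the threshold. None of the 3 was called without the block, without fibronectin 2 (Id1 0.109, Atoh8 0.0844, Id4 0.309) or without no coating 2 (0.0621, 0.0747 and 0.242). The call of Id4 also ended with DESeq2's size factors within edgeR (0.0516). It ended as well without fibronectin 1 (0.08), no coating 1 (0.0535) or any laminin library (0.0781 to 0.0921). DESeq2 called 3 members of the list, but Id4 was not among them (0.0924), and the direction of its calls is not given here.

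Notch1, the receptor, was the called member of 12 tested Notch pathway genes, at 207, 194 and 200 CPM on fibronectin against 263, 263 and 286 CPM without coating (-0.43 ± 0.08, adjusted p = 0.0182). Fzd7, a Wnt receptor, stood at 59.8, 65.5 and 65.2 CPM against 77.2, 75.8 and 79.6 CPM (-0.29 ± 0.05, adjusted p = 0.0225) and was the called member of 11 Wnt genes. Vegfa, the angiogenic growth factor, stood at 84.9, 90 and 86.6 CPM against 104, 110 and 101 CPM (-0.27 ± 0.05, adjusted p = 0.0143), as the called member of 15 FGF, PDGF and VEGF factors and of 21 hypoxia and glycolysis genes. Each of these lists held 1 call, which was 4.76% to 9.09% of its tested members, against 1.91% of all genes tested. Mmp14, the membrane-anchored collagenase, stood at 407, 364 and 376 CPM against 480, 438 and 453 CPM (-0.26 ± 0.04, adjusted p = 0.0141). With Adamts4 it made 2 of 17 proteases and inhibitors called lower (11.8%, against 0.501% of all genes tested). In each of these 4 called genes all fibronectin libraries lay below all uncoated ones. Groups did not overlap in 137 of all 191 called genes and in 6.38% of all genes tested. Without fibronectin 2 the adjusted p was 0.112 for Notch1, 0.142 for Fzd7, 0.144 for Vegfa and 0.129 for Mmp14, and without no coating 2 it was 0.175, 0.0725, 0.131 and 0.129. The call of Fzd7 also ended without fibronectin 1 (0.0581), no coating 3 (0.0749) or any laminin library (0.0506 to 0.0595).

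Proliferation and stress programs gave few or no calls. With 1.91% of all genes tested called, a list of this size would often hold none, so these counts do not set the programs apart. Of 24 genes of G1/S and replication and 24 of G2/M none passed the test, with medians of -0.00 and 0.03, and the same held for 21 genes of the unfolded protein response, 12 heat shock genes, 13 clock genes and 12 cell surface proteoglycans and adhesion receptors. Myc was the called gene among 20 of ribosome biogenesis. These counts are for edgeR with the block, and DESeq2 called none of these genes in the lists without a call. At an unadjusted p under 0.05 there were 2 genes of G1/S, 6 of G2/M, 5 of the unfolded protein response, none of heat shock, 2 of the clock and 2 surface proteoglycans or receptors. Leaving out no coating 1, which raised the calls over all genes to 561, gave 6 calls among the G2/M genes and 2 among the G1/S genes.

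**Figure D5:**
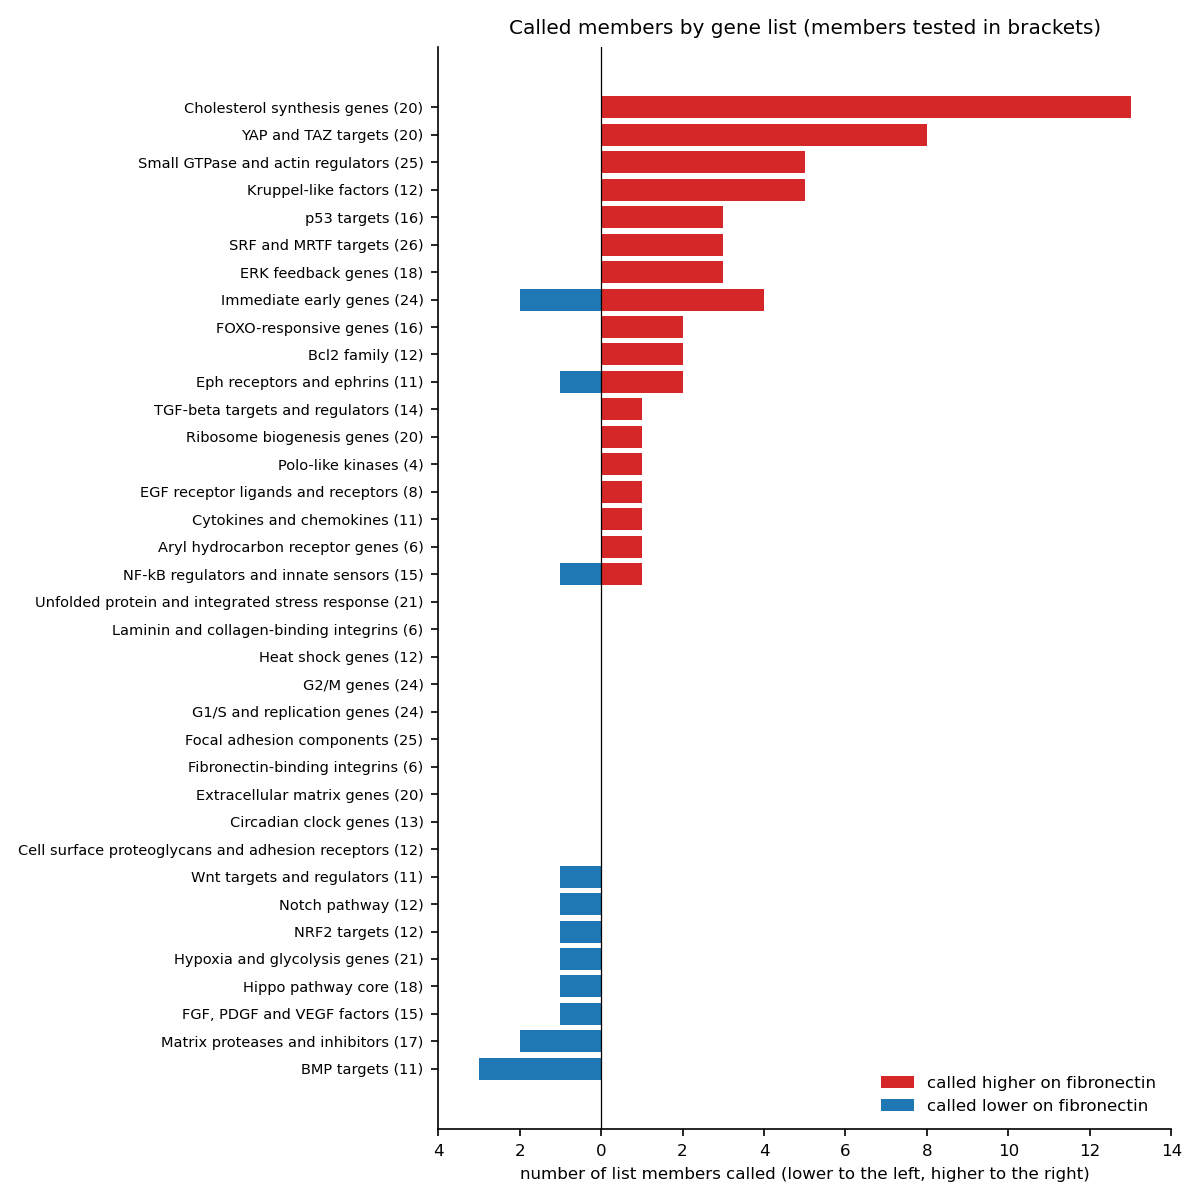
Number of members called higher (red, right) and lower (blue, left) on fibronectin in each gene list, with the number of members tested. Cholesterol synthesis genes have 13 of 20 called higher and YAP and TAZ targets 8 of 20, and most lists have between 0 and 3 calls.

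Laminin, the second coated surface, shows which of these values the fibronectin dish had against another matrix. Against laminin 225 of 9975 genes were called (2.26%), 180 higher on fibronectin (1.8%) and 45 lower (0.451%). With scaling by library size only the split was 132 higher and 61 lower. This comparison and that with no coating share the fibronectin libraries, so their lists of calls are not independent and only values are set side by side. Ccn1 was 3.41 ± 0.13 higher on fibronectin than on laminin, Ccn2 2.04 ± 0.08, Plk2 1.74 ± 0.07 and Hmgcs1 1.06 ± 0.09, all in log2 units. Lats2 was 0.50 higher than on laminin (adjusted p = 0.00118).

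Some called genes did not differ from laminin past the threshold. Ccng2 stood at 89.3, 72.6 and 87.4 CPM on fibronectin, 98.0, 76.8 and 83.1 CPM on laminin and 64.8, 57.9 and 59.3 CPM without coating, so both coated surfaces lay above the uncoated one, and fibronectin minus laminin was -0.05 (adjusted p = 0.754). Klf11 had 0.14 against laminin (adjusted p = 0.419). Among the falls, Apol9a had -0.08 (0.756), Egr1 -0.18 (0.473), Notch1 -0.17 (0.37) and Hmox1 -0.44 (0.314). Apol9a stood at 8.62, 7.66 and 8.98 CPM on laminin, within or next to the fibronectin values of 8.53, 7.74 and 7.62 CPM and below the uncoated values of 11.5, 11.9 and 13.4 CPM.

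Laminin itself gave no call against no coating with edgeR (0 of 9975, or 0%), with 735 genes at an unadjusted p under 0.05 and the smallest adjusted p, 0.0512, at Ccng2. DESeq2 called 9 genes in that comparison. The number depended on the libraries, with 140 calls without batch 3, 63 without fibronectin 3 and 28 without no coating 1.

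The suspension libraries carry the same protocol text as the attached ones, and the labels do not say how those cells were handled, so their levels are given beside those on fibronectin with no test. Ccn1 stood at 437, 585 and 554 CPM in suspension, Plk2 at 38.4, 62.0 and 47.8 CPM and Ajuba at 119, 126 and 115 CPM, each range reaching the fibronectin values. Amotl2, at 247, 264 and 248 CPM, and Klf2, at 4.29, 4.93 and 5.87 CPM, were lower in suspension than on fibronectin in every library. Ccn2, at 659, 765 and 594 CPM, Sgk1, at 496, 646 and 664 CPM, and Nlrp3, at 15.3, 20.29 and 13.6 CPM, were higher in every library, and Notch1, at 52.5, 46.7 and 51.1 CPM, was lower.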

How the data were processed

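The authors deposited a raw count for every Entrez gene identifier in each library, made from total RNA with a stranded kit per the labels' protocols. Reads were placed on rn4 according to the submitters' processing notes. How they were aligned, annotated and counted, and whether strand was used, is not given in the sources used here. Reads of overlapping antisense genes or near-identical copies cannot be told apart. Symbols came from the RefSeq table of assembly GRCr8 (16761 of 16924 identifiers matched), as did the promoters, whose coordinates are on GRCr8 and not on the build of the counts.

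Counts were tested with edgeR 4.0.16 in R 4.3.3 (glmQLFit and glmQLFTest) on the 9 attached libraries, with group and batch as terms, genes kept by filterByExpr, TMM scaling and a Benjamini-Hochberg threshold of 0.05, leaving 4 residual degrees of freedom and a biological coefficient of variation of 0.0582. The batch number in the labels is the pairing. Across genes, deviations from the group means correlated at 0.551, 0.648 and 0.788 between the fibronectin and uncoated libraries of batches 1, 2 and 3, and at -0.693 to 0.334 between batches. No replicates were alike within sampling noise. CPM values are TMM-scaled over the 12 libraries, and log2 CPM uses a prior count of 2. The script was checked on simulated counts. Other fits dropped the block, used 6 or 12 libraries, other scaling or filters, DESeq2 1.42.0, or left out a library or batch 3.

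Genes were named by rule: the 15 largest called rises and falls with a mean of 2 or more log2 CPM and 1 direction in all batches (136 and 47 qualified), skipping symbols beginning LOC, RGD, MGC, Mir, Snor or Scarna; Yap1, Wwtr1, the Polo-like kinases and the tested YAP and TAZ targets; and up to 4 called members with the smallest p of each other list with at least 4 tested. The tested YAP and TAZ targets and sterol genes include a few that are not reported here by name and stay in the counts. The members and lists were chosen with earlier results of these data known.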

Additional observations from a re-analysis of the deposited data

How the results depend on the processing

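Of the 191 calls of fibronectin against no coating, 17 were made without the replicate block, 73 with the block on the 6 libraries alone, 47 with the block on all 12 libraries and 18 on all 12 without it, and all of these were among the 191. Leaving out 1 library gave 57 to 561 calls. Against laminin, 225 became 17 without the block, 41 and 15 on 12 libraries with and without it, 494 without batch 3, and 58 to 285 with 1 library left out. Calls within the gene lists, 64, became 10, 36, 22 and 10 under the first 4 settings, and 28 to 93 with 1 library left out. Library size scaling, DESeq2's size factors within edgeR, DESeq2 itself, no filter and a filter at 1 CPM kept each of these counts within 1.5 times, with 202, 193, 197, 224 and 190 calls against no coating. Of the 67 called genes described by name, DESeq2 ended the call of 7, its size factors within edgeR 2 and the filter at 1 CPM 1. None of the 67 called genes reversed in any fit, and 12 kept their call in all of them. The cause was not tested. Uncalled genes changed sign. Without batch 3, Nt5e was at -0.0135, Myof at -0.0402 and Yap1 at 0.00438. Myof was at -0.00995 by library size, and Yap1 at 0.00855 with DESeq2's size factors and 0.0086 with DESeq2. With 1 library left out, Myof ran from -0.0372 to 0.0481, Yap1 from -0.0429 to 0.0237 and F3 from -0.192 to 0.0969. With 3 libraries a group and 4 residual degrees of freedom, small differences in genes near 1 CPM were not detectable at this depth.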

Other observations

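Of the 191 called genes, 127 were in none of the lists, 91 higher and 36 lower on fibronectin. The genes below were picked from them after their values were seen, by small p and known function, and all p-values are edgeR's with the batch block. Gata3, a zinc-finger factor known from T cells and trophoblast, stood at 6.06, 6.11 and 6.05 CPM on fibronectin and at 1.97, 1.86 and 2.00 CPM without coating (1.64 ± 0.17, adjusted p = 0.000718), and its libraries were almost equal within each group. Meis1, a homeobox factor that restrains cardiomyocyte proliferation, stood at 76.6, 86.7 and 79.8 CPM against 53.3, 58.4 and 49.5 CPM (0.60 ± 0.05, adjusted p = 0.000316). Wt1, a marker of epicardium, was near the floor at 1.41, 1.11 and 0.578 CPM against 0.438, 0.512 and 0.294 CPM (1.31 ± 0.28, adjusted p = 0.0475).

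Fst, which encodes follistatin, an inhibitor of activins and BMPs, stood at 38.0, 39.4 and 38.0 CPM on fibronectin and at 23.8, 25.3 and 22.2 CPM without coating (0.70 ± 0.06, adjusted p = 0.000316). Metrnl, a secreted meteorin-like protein, rose by 0.78 ± 0.08, and Fzd8, a Wnt receptor, by 0.70 ± 0.07. Fzd7, its relative described above, fell. Among GTPase regulators outside the lists, Dlc1, a GTPase-activating protein of focal adhesions, rose by 0.43 ± 0.05 and Arhgap22, another such protein, fell by 0.36 ± 0.05. Ets2, an ETS-family factor downstream of ERK, stood at 96.1, 90.7 and 94.1 CPM against 120, 121 and 132 CPM (-0.41 ± 0.05, adjusted p = 0.00204), and Trib1, a pseudokinase, fell by 0.45 ± 0.06. In Gata3, Meis1, Wt1, Fst and Ets2 no fibronectin library overlapped the uncoated ones. The same held for 137 of all 191 called genes and 6.38% of all genes tested. The genes that fell at least 2-fold, Pygm (-1.04 ± 0.19) and Nr0b2 (-1.01 ± 0.18), were both near 1 CPM on fibronectin.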
